A study of Homo sapiens with 24 samples.

Results

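The tRNA pools of DUS2L knockout cells were set directly against those of DUS1L knockout cells. The comparison rests on the 12 libraries of the 4 knockout clones, of the 24 libraries in the series, and on every nuclear and mitochondrial tRNA listed for both genes, 283 of 286 entries at the isodecoder level, the other 3 being E. coli tRNAs added as spike-ins. All cells were HEK293T, a human embryonic kidney line, grown without drug treatment, and tRNA was cut from a gel before small RNA libraries were made. The labels name the DUS1L knockout lines 1-9 and 2-4 and the DUS2L knockout lines 1-8 and 2-1, each with 3 libraries. The deposited tables name them clone #1 and clone #2, do not tie these to the labels, and give each clone only as a change against wild type. Each line is 1 clone, so 2 clones stand for the loss of each gene. The tables hold tRNA alone, so neither the cell type nor the loss of the enzymes could be checked against other RNA.

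DUS1L and DUS2L are dihydrouridine synthases. They reduce the uracil ring of chosen uridines in the D loop of tRNA, DUS1L at positions 16 and 17 and DUS2L at position 20. Dihydrouridine is not aromatic and stacks poorly, and it is known for keeping the D loop flexible where that loop meets the T loop at the elbow of the folded tRNA. A nuclear anticodon family holds all cytosolic tRNAs with 1 anticodon, and its isodecoders share that anticodon and differ elsewhere in the sequence. Mitochondrial tRNAs are encoded in the mitochondrial genome, 1 gene for each, and serve translation inside the organelle.

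Mitochondrial tRNAs are the entries whose sequence could be read from the reference (GENCODE transcripts on GRCh38, mitochondrial chromosome). The 3 called higher in the DUS2L knockouts and the 2 with the lowest difference are shown 5′ to 3′ as gene sequence, with the anticodon in capitals.
mt-Ser-TGA: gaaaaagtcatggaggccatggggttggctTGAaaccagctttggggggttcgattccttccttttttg
mt-Pro-TGG: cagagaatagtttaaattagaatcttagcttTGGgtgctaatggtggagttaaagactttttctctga
mt-Trp-TCA: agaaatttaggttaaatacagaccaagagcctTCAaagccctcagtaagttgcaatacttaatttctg
mt-Asp-GTC: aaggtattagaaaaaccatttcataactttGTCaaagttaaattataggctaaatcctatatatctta
mt-Cys-GCA: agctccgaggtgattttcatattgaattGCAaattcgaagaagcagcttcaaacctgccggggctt
In order, these are MT-TS1 (chrM:7446-7514, minus strand), MT-TP (chrM:15956-16023, minus strand), MT-TW (chrM:5512-5579, plus strand), MT-TD (chrM:7518-7585, plus strand) and MT-TC (chrM:5761-5826, minus strand).

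Levels below are normalised counts recovered from the authors' mean and fold changes, with the DUS2L values brought to the scale of the DUS1L table. The series holds 2 sets of 3 wild-type libraries, labelled WT and WT 2, and which set entered the tables is not given in the sources used here. The wild type is common to both tables: the recovered wild-type levels of the tables differed by a constant log2 ratio of 1.19 (SD 0.021 over 239 entries). The wild type therefore cancels when the log2 fold changes of the clones are subtracted. Recovered totals were 1382450 and 1087870 normalised counts for DUS1L clones #1 and #2. Before subtraction the median nuclear entry of each clone was set to 0 (0.18 and -0.18 for DUS1L clones #1 and #2, -1.18 and -0.78 for the DUS2L clones), and differences are DUS2L minus DUS1L, as log2 ± SE of the mean over clones. Each of the 4 pairs of a DUS2L and a DUS1L clone was tested by a 2-sided Wald test on the SEs recovered from the authors' fits. Benjamini-Hochberg adjustment ran over the entries tested, and a tRNA was called when all 4 pairs passed 0.05 in the same direction. The adjusted p printed is the largest of the 4 pairs. Those errors hold the spread between libraries of a clone, which may be technical since the labels do not name separate cultures, and not the spread between clones. An exact permutation of 2 clones against 2 cannot go below p = 0.3333.

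Of 199 nuclear isodecoders tested, 44 were higher in both DUS2L clones than in both DUS1L clones (22.1% of those tested) and 23 were lower (11.6%). The higher calls ran from 1.09 to 9.58 with a median of 2.73, and the lower calls had a median of -2.64. Without regard to the test, the centred values of the clones did not overlap between the genes for 94 isodecoders in the higher direction (47.2%) and 65 in the lower (32.7%), while those of 40 overlapped. Over all 199 the median difference was 0.40, so the centre of the comparison lay above 0.

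The split between higher and lower calls depended on the scaling. With no centring 16 isodecoders were higher and 55 lower, with the spike-ins as reference 23 and 41, with the nuclear total of each clone 19 and 51, and with each clone pair centred on its median nuclear difference 30 and 34. The median difference of all nuclear isodecoders was -0.57, -0.12, -0.55 and -0.02 under these 4 scalings. Of the main calls, all 23 lower isodecoders and 16 of the 44 higher ones passed under each of the 5 scalings, and 0 isodecoders were called in opposite directions. Keeping the wild-type part of the spread in both fold changes left 24 higher and 13 lower. The lower count was 40 without DUS1L clone #2 and 37 without DUS2L clone #1.

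**Figure D1:**
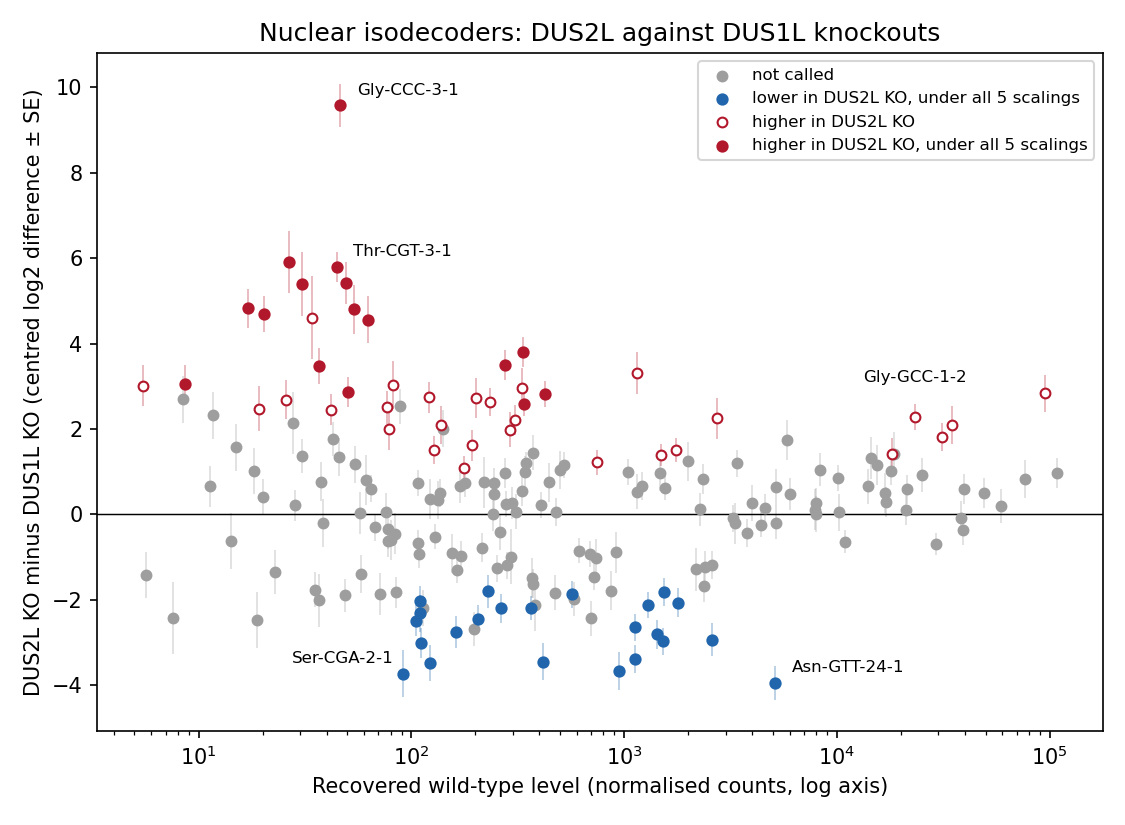
Difference between DUS2L and DUS1L knockouts (centred log2, bars ± SE) against the recovered wild-type level (normalised counts, log axis) for the 199 nuclear isodecoders tested. Filled red and blue points are the 16 higher and 23 lower isodecoders called under all 5 scalings, open red points the other higher calls, and grey points those not called.

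The higher and lower isodecoders also stood at different wild-type levels. The median recovered wild-type level was 133 normalised counts for the higher calls and 417 for the lower ones, beside 294 over all tested. Of the 44 higher calls 20 had a wild-type level under 100, as had 1 of the 23 lower calls and 56 of the 199 tested. A low level leaves little room for a fall to be detected, and the part of this limit in the contrast was not tested. For the 16 higher calls that held under each scaling the median was 48.0.

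Most lower isodecoders lay above wild type in both DUS1L clones, and all lay below it in both DUS2L clones. Before any centring, both DUS2L clones were below wild type for 23 of the 23, and both DUS1L clones were above it for 17. The median nuclear entry was itself below wild type in the DUS2L clones before centring, at -1.18 and -0.78. Calling on the difference between the genes also favours opposite sides, and the share over all tested isodecoders was not counted. Centred values put the clones of the genes on opposite sides of wild type for 21. Before centring, DUS1L clone #1 stood above clone #2 in 20 of the 23, as it did in 35 of the 44 higher calls. That order is not particular to the calls, since the uncentred median nuclear entry was 0.18 in clone #1 and -0.18 in clone #2.

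Leucine tRNAs, which carry the long variable arm of class II tRNAs, supplied the most lower calls. Of 13 tested leucine isodecoders 7 were lower and 3 higher (median -2.02), beside 11.6% and 22.1% of all nuclear isodecoders tested. All 4 tested isodecoders of Leu-CAA, which reads the UUG codon, were lower, and all 4 were lower under each of the 5 scalings. tRNA-Leu-CAA-4-1 (GRCh38 chromosome 1, 248873855 to 248873960, outside annotated GENCODE genes) had a level of 1130 in wild type, 5937 and 2050 in the DUS1L clones and 146 and 196 in the DUS2L clones. The groups were far apart, at -3.39 ± 0.33 (adjusted p = 3.32e-08). tRNA-Leu-CAA-2-1 went from 769 and 417 to 41.6 and 42.2 (-2.76 ± 0.37, adjusted p = 6.65e-05). tRNA-Leu-CAA-1-2, the most abundant member in wild type at 1535, was at 4911 and 2784 against 600 and 463, a smaller difference of -1.82 ± 0.33 (adjusted p = 0.0249). tRNA-Leu-CAG-2-2, which reads CUG, was at 4827 and 2096 in the DUS1L clones and 245 and 271 in the DUS2L clones (-2.64 ± 0.31, adjusted p = 1.19e-05).

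The leucine exceptions were marked. tRNA-Leu-AAG-4-1 (chromosome 6, 28478623 to 28478704, outside annotated genes) stood at 25.1 and 16.2 in the DUS1L clones, near its wild-type level of 26.5, and at 539 and 661 in the DUS2L clones (5.90 ± 0.73, adjusted p = 1.96e-07). In the Leu-TAA family tRNA-Leu-TAA-2-1 went from 40.1 and 28.1 to 343 and 462 (4.56 ± 0.55, adjusted p = 6.89e-08), whereas tRNA-Leu-TAA-1-1 went from 187 and 271 to 30.9 and 26.0 (-2.02 ± 0.34, adjusted p = 0.0247). The family therefore changed its make-up: tRNA-Leu-TAA-1-1 held 37.1% and 71.1% of it in the DUS1L clones and 5.02% and 3.28% in the DUS2L clones, and tRNA-Leu-TAA-2-1 held 7.97% and 7.38% against 55.7% and 58.3%. How reads shared by such near-identical tRNAs were divided is not given in the sources used here, and its part in these values was not tested.

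The other class II tRNAs are those for serine and selenocysteine, and serine tRNAs held the lowest single differences of the class. tRNA-SeC-TCA-1-1 (chromosome 19, 45478601 to 45478687, in an intron of ERCC1) inserts selenocysteine at chosen UGA codons of selenoprotein messages. Its level was 1517 in wild type, 5876 and 3506 in the DUS1L clones and 344 and 253 in the DUS2L clones, with no overlap (-2.98 ± 0.32, adjusted p = 2.06e-06). The other SeC entry, tRNA-SeC-TCA-2-1, was under 3 normalised counts in each clone and was not tested. Among serine tRNAs, tRNA-Ser-GCT-5-1 was at 709 and 916 against 40.4 and 33.8 (-3.45 ± 0.44, adjusted p = 4.68e-05), and tRNA-Ser-CGA-2-1 at 73.4 and 32.1 against 1.57 and 2.15 (-3.73 ± 0.55, adjusted p = 0.000157). The value of tRNA-Ser-CGA-2-1 is near the floor in the DUS2L clones. It was the call lost when a level of at least 10 was required in all 4 clones, which left 22 lower isodecoders. Of 15 serine isodecoders tested 4 were higher and 2 lower, near the shares over all nuclear isodecoders (22.1% and 11.6%). None of the 4 higher ones held under all 5 scalings. Over the 29 class II isodecoders tested 7 were higher and 10 lower, beside 22.1% and 11.6% of all nuclear isodecoders. The class II median was -1.82 beside 0.40 for all nuclear isodecoders.

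Asparagine tRNAs held 4 lower calls and 1 higher call of 15 tested (median -0.93), beside 11.6% and 22.1% of all nuclear isodecoders. The largest fall from one knockout to the other was that of tRNA-Asn-GTT-24-1 (chromosome 1, 146370101 to 146370174, in an intron of the pseudogene SEC22B4P), at 5115 in wild type, 27711 and 5058 in the DUS1L clones and 345 and 451 in the DUS2L clones (-3.95 ± 0.39, adjusted p = 1.65e-06). DUS1L clone #1 alone stood above wild type, yet clone #2 was also far above both DUS2L clones. tRNA-Asn-GTT-9-2, tRNA-Asn-GTT-2-3 and tRNA-Asn-GTT-6-1 were also lower, with DUS1L clone #1 above clone #2 in each, at -3.67 ± 0.44, -2.94 ± 0.39 and -2.81 ± 0.33. tRNA-Asn-GTT-12-1 was the higher call and was below wild type in both knockouts: from 1150 in wild type it was at 25.9 and 4.53 in the DUS1L clones and 59.6 and 51.8 in the DUS2L clones (3.32 ± 0.49, adjusted p = 0.00612). That call did not hold under all 5 scalings.

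**Figure D2:**
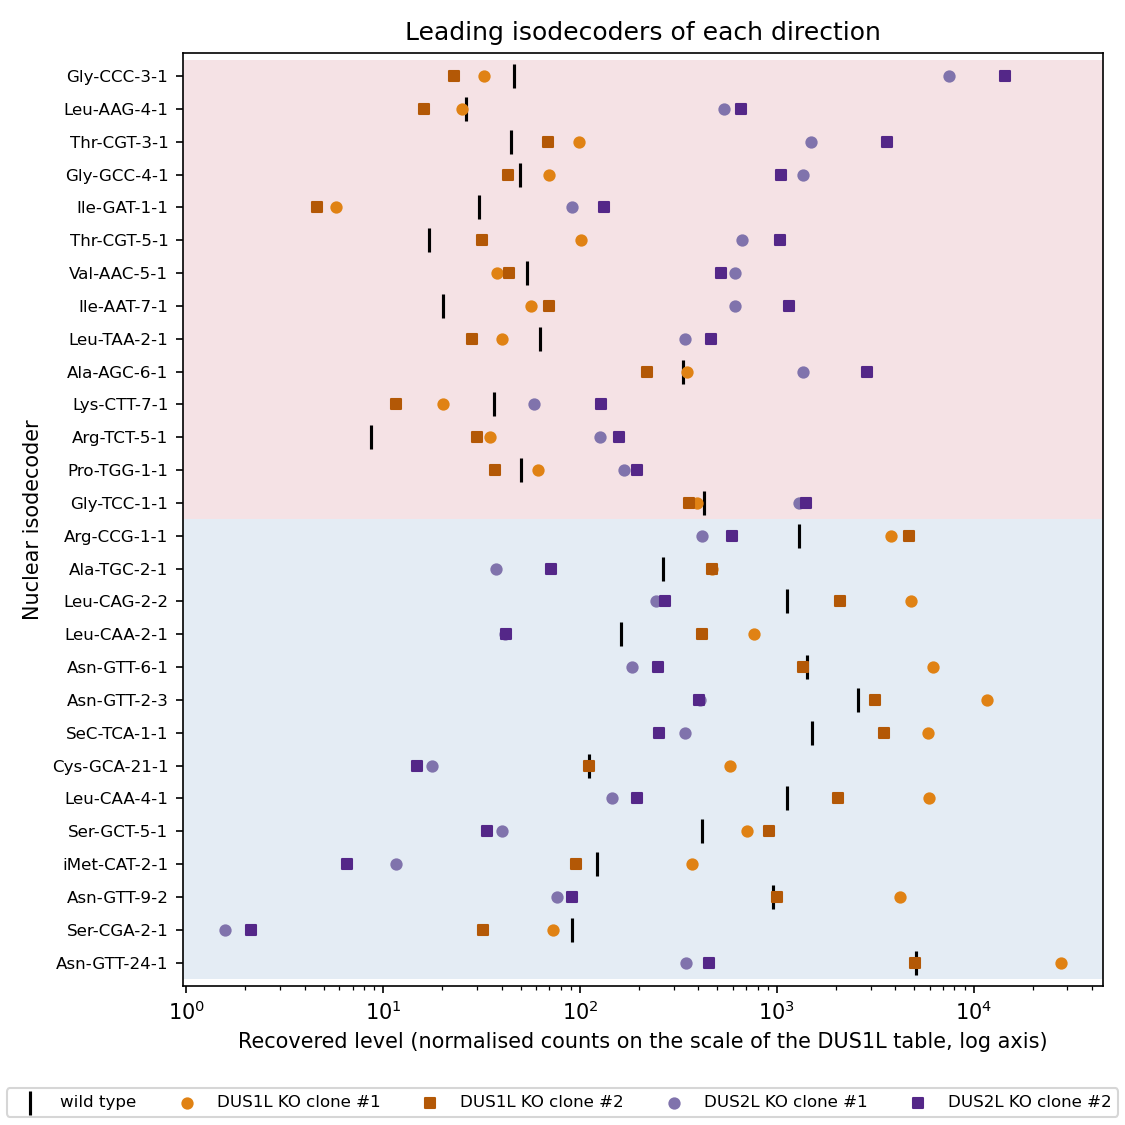
Recovered levels (normalised counts, log axis) of the 14 leading isodecoders of each direction in wild type (bar) and the 4 knockout clones, ordered by difference. Orange DUS1L and purple DUS2L points do not overlap in any of the 28, which choosing them by the smallest pair difference favours. DUS1L clone #1 lies above clone #2 for 12 of the 14 in each direction, as it does for the median nuclear entry before centring.

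Alanine, arginine, lysine, valine and cysteine tRNAs and the initiator made up the remaining lower calls. Of the 6 tested Ala-TGC isodecoders 3 were lower and 1 higher, beside 11.6% and 22.1% of all nuclear isodecoders. tRNA-Ala-TGC-2-1 was at 469 and 466 against 37.7 and 71.6 (-2.20 ± 0.34, adjusted p = 0.000813). tRNA-Arg-CCG-1-1 (chromosome 6, 28742952 to 28743024) was at 3821 and 4683 in the DUS1L clones, above its wild-type 1295, and at 418 and 592 in the DUS2L clones (-2.12 ± 0.30, adjusted p = 0.00013). tRNA-Cys-GCA-21-1 was the only call among 13 cysteine tRNAs tested, at 576 and 111 against 17.7 and 14.9 (-3.02 ± 0.36, adjusted p = 0.00296).

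The 2 isodecoders of the initiator tRNA, which starts every cytosolic protein chain, moved apart. tRNA-iMet-CAT-2-1 was at 370 and 95.9 in the DUS1L clones and 11.6 and 6.59 in the DUS2L clones (-3.48 ± 0.42, adjusted p = 0.00141). The main isodecoder tRNA-iMet-CAT-1-8 was at 2425 and 1722 against 2010 and 4408. Its levels overlapped before centring, its centred difference was 1.51 ± 0.28 (adjusted p = 0.0173), and the call did not hold under all 5 scalings. The minor isodecoder made up 13.2% and 5.28% of the family in the DUS1L clones and 0.574% and 0.149% in the DUS2L clones.

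Glycine tRNAs held the largest rise. tRNA-Gly-CCC-3-1, whose gene lies inside an intron of ULK2 (chromosome 17, 19860862 to 19860932), was at 46.4 in wild type, 32.7 and 23.0 in the DUS1L clones and 7475 and 14445 in the DUS2L clones. The difference was 9.58 ± 0.51 (adjusted p = 5.55e-36), with pairs from 9.23 to 9.92. In the DUS2L clones it made up 37.6% and 47.1% of the Gly-CCC family, against 0.0970% and 0.0950% in the DUS1L clones. tRNA-Gly-GCC-4-1 (chromosome 1, 161480566 to 161480636) was at 69.8 and 43.0 against 1364 and 1046 (5.42 ± 0.48, adjusted p = 1.18e-11), and tRNA-Gly-TCC-1-1 at 392 and 357 against 1293 and 1413 (2.81 ± 0.30, adjusted p = 3.37e-08). In all 6 of 12 glycine isodecoders were higher and 0 lower (median 1.99), beside 22.1% and 11.6% of all nuclear isodecoders. The glycine median stayed above 0 under each scaling, at 1.01 with no centring, where 4 were higher and 1 lower.

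The single most abundant glycine tRNA changed the make-up of the whole pool. tRNA-Gly-GCC-1-2, which reads GGC, was at 94782 in wild type, 93759 and 55599 in the DUS1L clones and 192452 and 352346 in the DUS2L clones (2.84 ± 0.43, adjusted p = 0.000303). It made up 6.78% and 5.11% of all normalised counts in the DUS1L clones and 21.8% and 28.3% in the DUS2L clones, beside 6.94% in wild type. Its call was not among those that held under all 5 scalings.

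Lysine tRNAs for the AAG codon were mostly higher. Of 7 tested Lys-CTT isodecoders 5 were higher and 0 lower (median 2.29), beside 22.1% and 11.6% of all nuclear isodecoders. The remaining 2 had centred clones that did not overlap in the higher direction, as had 47.2% of all nuclear isodecoders. tRNA-Lys-CTT-5-1 (chromosome 16, 3180554 to 3180626) was at 738 and 140 in the DUS1L clones and 1652 and 2079 in the DUS2L clones (3.50 ± 0.34, adjusted p = 2.04e-06). tRNA-Lys-CTT-7-1 was at 20.05 and 11.7 against 58.1 and 128 (3.47 ± 0.42, adjusted p = 5.85e-06). These 2 held under each scaling, and with no centring they were the 2 that passed of the 7. Of 7 tested Lys-TTT isodecoders, which read AAA, 2 were higher and 2 lower, beside 22.1% and 11.6% of all nuclear isodecoders. The minor tRNA-Lys-TTT-6-1 made up 26.1% and 15.7% of that family in the DUS1L clones and 1.27% and 1.99% in the DUS2L clones.

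Isoleucine, threonine, valine and alanine tRNAs were among the other large rises. tRNA-Ile-GAT-1-1 (chromosome X, 3838377 to 3838450), the only member of its family, was at 30.7 in wild type, 5.80 and 4.60 in the DUS1L clones and 91.4 and 132 in the DUS2L clones. It was below wild type in one knockout and above it in the other (5.41 ± 0.75, adjusted p = 4.58e-06). Of 11 isoleucine isodecoders 5 were higher and 0 lower, beside 22.1% and 11.6% of all nuclear isodecoders. With no centring the isoleucine counts became 2 and 2. tRNA-Thr-CGT-3-1 was at 99.5 and 68.5 against 1497 and 3612 (5.80 ± 0.35, adjusted p = 1.42e-24), tRNA-Thr-CGT-5-1 differed by 4.82 ± 0.46 and tRNA-Ile-AAT-7-1 by 4.70 ± 0.42. tRNA-Val-AAC-5-1 was at 38.1 and 43.6 against 614 and 519 (4.80 ± 0.58, adjusted p = 2.2e-06), while the abundant tRNA-Val-AAC-2-1 differed by 2.25 ± 0.48 with a call that did not hold under all 5 scalings. tRNA-Ala-AGC-6-1 was at 351 and 220 against 1360 and 2885 (3.80 ± 0.35, adjusted p = 5.52e-10), tRNA-Arg-TCT-5-1 differed by 3.06 ± 0.44 and tRNA-Pro-TGG-1-1 by 2.87 ± 0.35. Before centring, both DUS2L clones were above wild type for 35 of the 44 higher isodecoders and both DUS1L clones below it for 25. Calling on the difference between the genes favours these sides, and the shares over all tested isodecoders were not counted.

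Tyrosine and glutamine tRNAs show what the call rule left out. Of 4 tested Tyr-GTA isodecoders tRNA-Tyr-GTA-4-1 was higher, at 173 and 156 against 360 and 875 (2.74 ± 0.37, adjusted p = 0.000109). tRNA-Tyr-GTA-2-1 and tRNA-Tyr-GTA-5-2 had differences of -0.78 ± 0.34 and -1.83 ± 0.36 and were not called (adjusted p = 0.663 and 0.871), and tRNA-Tyr-GTA-7-1 was at 2.32 ± 0.55 (adjusted p = 0.0544). All 9 tested glutamine isodecoders had centred clones that did not overlap, higher in DUS2L, at 0.22 to 1.76, beside 47.2% of nuclear isodecoders, and 0 were called. With no centring the glutamine median was -0.01, so no direction is given for them.

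At the anticodon level 7 of 42 tested nuclear families were higher in the DUS2L knockouts (16.7%) and 4 were lower (9.52%), with a median over all of 0.34. With no centring 1 was higher and 11 lower, with the spike-ins 3 and 8, with the nuclear total 2 and 11, and with each pair's median difference 2 and 10. Ile-GAT alone of the higher families, and all 4 lower families, passed under each of the 5 scalings. Ile-GAT rests on 1 isodecoder with a level under 10 in both DUS1L clones. It dropped out when a level of at least 10 in all 4 clones, or a mean of at least 100, was required. Either rule left 6 higher families and all 4 lower ones. Without DUS1L clone #1 the calls were 11 higher and 7 lower, and without DUS2L clone #1 the lower count was 8. With the wild-type part of the spread kept, 1 was higher and 2 were lower.

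The 4 lower families were SeC-TCA, Leu-CAG, Leu-CAA and Asn-GTT. SeC-TCA was at 5877 and 3508 in the DUS1L clones and 346 and 256 in the DUS2L clones (-3.24 ± 0.34, adjusted p = 1.82e-05). Leu-CAG differed by -2.69 ± 0.35 (adjusted p = 0.000358) and Leu-CAA by -2.57 ± 0.31 (adjusted p = 0.00151). Asn-GTT was at 64056 and 18039 against 4180 and 5849 (-2.09 ± 0.30, adjusted p = 0.0301), from 20985 in wild type, so DUS1L clone #2 was close to wild type and both DUS2L clones well below it. Ser-GCT had a difference of -2.18 ± 0.52 and passed in 3 of the 4 pairs (adjusted p = 0.0978).

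Gly-GCC, at 103235 and 63685 in the DUS1L clones and 198468 and 359876 in the DUS2L clones, was the most abundant of the higher families (2.43 ± 0.41, adjusted p = 0.00406). Tyr-GTA differed by 1.96 ± 0.31 (adjusted p = 0.0114), Val-AAC by 1.76 ± 0.42, Gly-TCC by 1.67 ± 0.29, Lys-CTT by 1.65 ± 0.32 and Leu-TAA by 1.37 ± 0.31. In Tyr-GTA the untested tRNA-Tyr-GTA-9-1 held 51.6% and 37.1% of the family in the DUS2L clones, against 0.167% and 0.0409% in the DUS1L clones. The Tyr-GTA family without that entry was not tested. Lys-CTT stood at 37169 and 24772 in the DUS1L clones, below its wild-type 73214, and at 46192 and 73792 in the DUS2L clones. iMet-CAT had a difference of 1.09 ± 0.31 and was not called (adjusted p = 0.319). Gly-CCC, in spite of its changed make-up, was at 0.50 ± 0.33 (adjusted p = 0.686). Of the 49 nuclear families 7 held isodecoders called in both directions, 20 in the higher direction alone, 7 in the lower alone and 15 in neither.

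**Figure D3:**
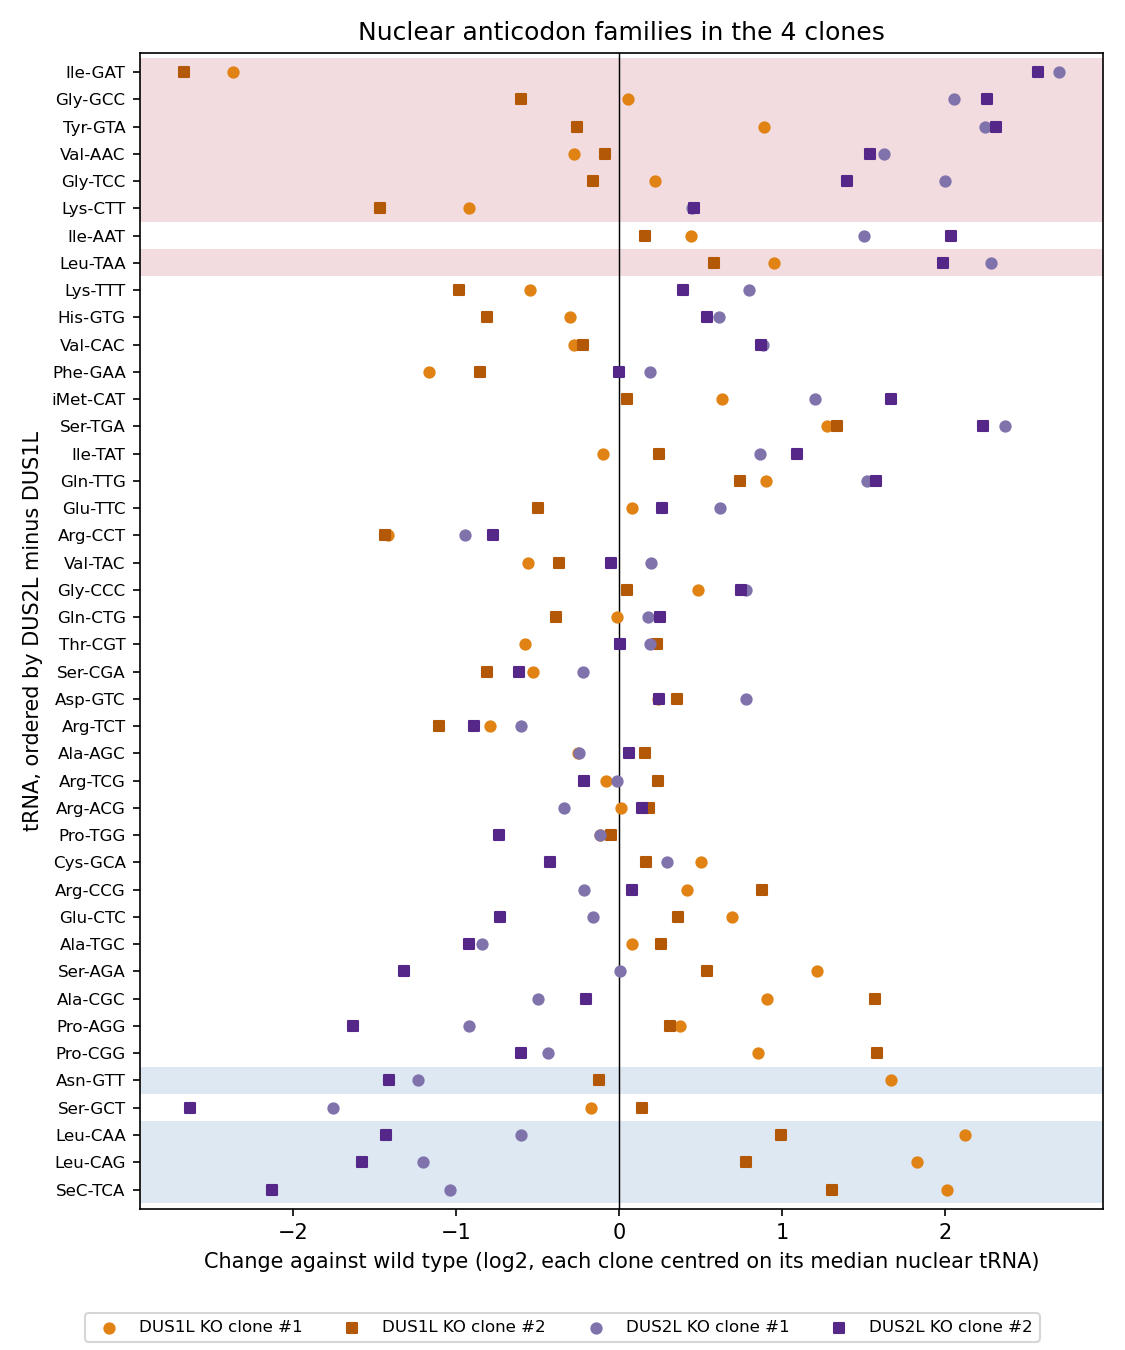
Change against wild type (log2, each clone centred on its median nuclear family) of the 42 tested nuclear anticodon families in the 4 clones, ordered by difference. Red bands mark the 7 families called higher in DUS2L knockouts and blue bands the 4 called lower. In those 11 the call rule itself requires that orange DUS1L and purple DUS2L points not overlap. Over all 42 the points do not overlap for 21 families in the higher direction and 13 in the lower.

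Of the 22 mitochondrial tRNAs tested, 3 were higher (13.6%) and 0 lower in the table of isodecoders, with a median difference of 0.02. Single clone pairs passed for other mitochondrial tRNAs in either direction without a call. mt-Ser-TGA, whose sequence is shown above, was at 183 in wild type, 169 and 190 in the DUS1L clones and 517 and 506 in the DUS2L clones (2.44 ± 0.39, adjusted p = 0.00118). mt-Pro-TGG was at 6453 and 3777 against 9277 and 10032 (1.93 ± 0.32, adjusted p = 0.00147), and mt-Trp-TCA at 727 and 505 against 860 and 1211 (1.68 ± 0.41, adjusted p = 0.0186). In these 3 the levels of the genes did not overlap even before centring. mt-Thr-TGT followed at 1.08 ± 0.35 without a call (adjusted p = 0.0769). At the other end were mt-Cys-GCA, at 1006 and 1082 against 292 and 234 (-1.04 ± 0.42, adjusted p = 0.57), and mt-Asp-GTC, at 2459 and 2273 against 713 and 761 (-0.75 ± 0.39, adjusted p = 0.507).

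The mitochondrial calls turned on the scaling. With the nuclear total as reference 0 were higher and 1 lower, with no centring 1 and 2, and with the spike-ins 1 and 1. In the anticodon table, centred on its own families, mt-Ser-TGA alone was called (4.55% of 22), at 2.16 ± 0.40 (adjusted p = 0.00863). Of the 8 tRNAs encoded on the light strand 2 were higher, and of the 14 on the heavy strand 1 was. The mitochondrial share of all normalised counts was 27.9% and 22.3% in the DUS1L clones and 19.2% and 10.7% in the DUS2L clones, beside 16.4% in wild type.

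**Figure D4:**
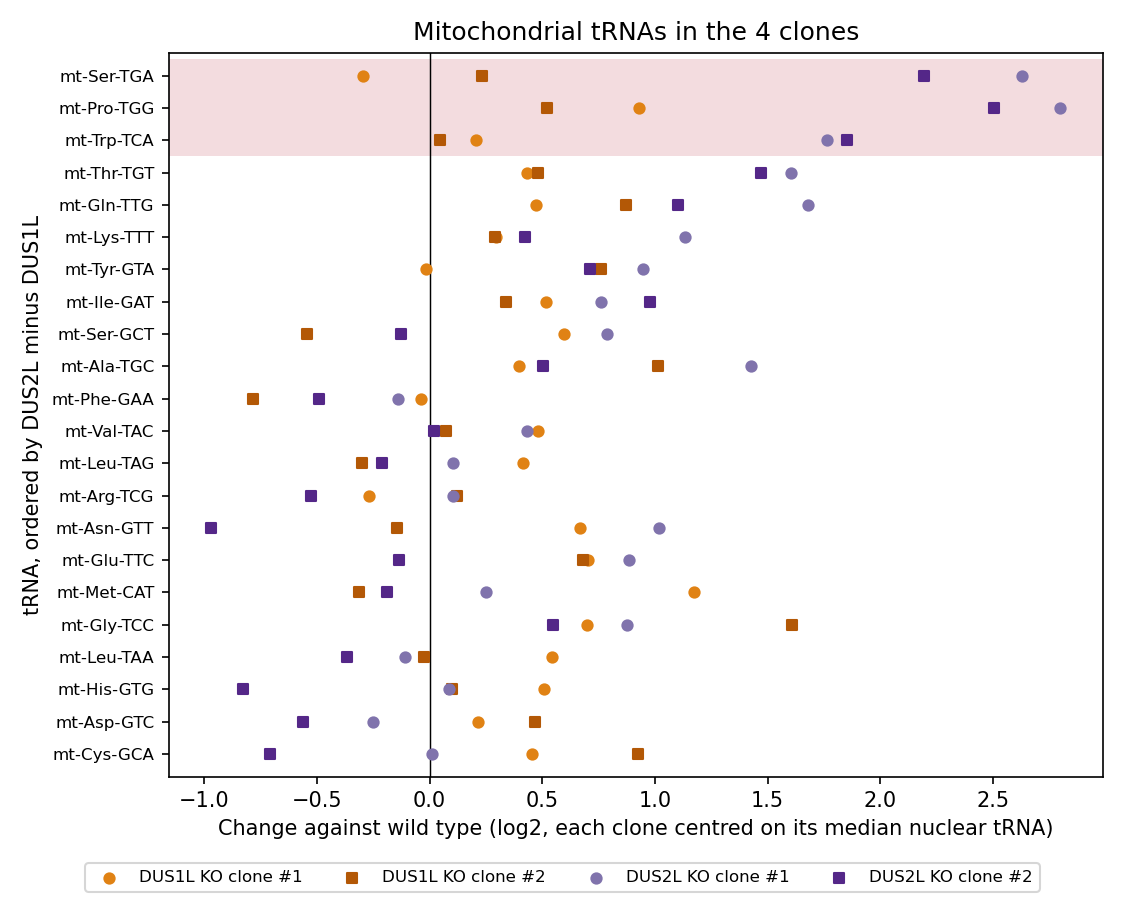
Change against wild type (log2, each clone centred on its median nuclear isodecoder) of the 22 mitochondrial tRNAs in the 4 clones, ordered by difference. Red bands mark mt-Ser-TGA, mt-Pro-TGG and mt-Trp-TCA, the 3 called higher, and for 11 of the 22 the points of the genes overlap.

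Of the E. coli spike-ins added to the RNA, the phenylalanine tRNA was called higher in the isodecoder table (1.46 ± 0.23, adjusted p = 0.000477), the lysine tRNA was at 0.47 ± 0.26 and the tyrosine tRNA at -0.36 ± 0.22. The spike-ins thus disagreed among themselves as a reference. Together they made up 1.22% and 1.43% of normalised counts in the DUS1L clones and 1.36% and 0.884% in the DUS2L clones.

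**Figure D5:**
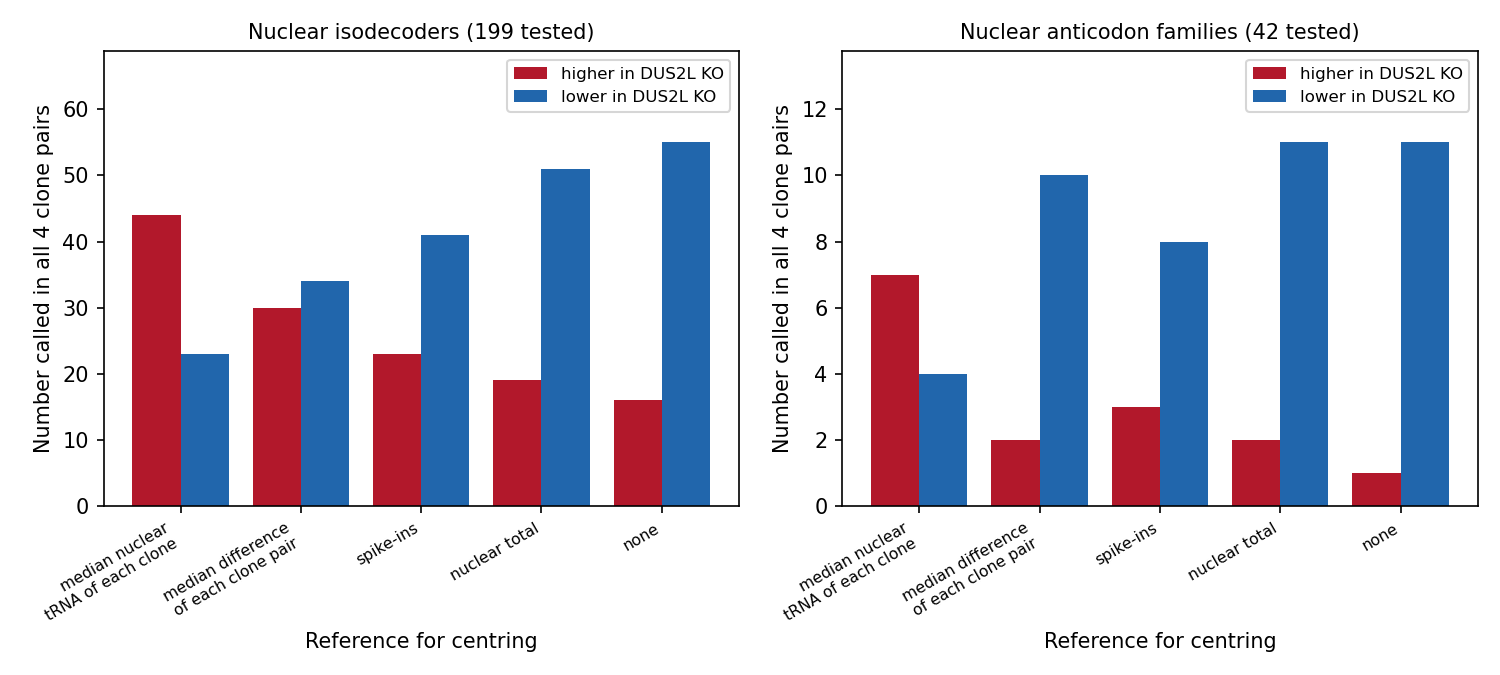
Number of nuclear isodecoders (left, 199 tested) and anticodon families (right, 42 tested) called in all 4 clone pairs as higher or lower in DUS2L knockouts under each reference for centring. Higher isodecoders fall from 44 to 16 and lower ones rise from 23 to 55 between the median nuclear tRNA and no centring.

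Some tRNAs seen in only one knockout could not be tested. Of 261 nuclear isodecoders 62 were left out, 47 because the authors' mean was under 10 in a table and 15 because no p-value was given. Of the 47, the mean was under 10 in the DUS1L table alone for 27, in the DUS2L table alone for 2 and in both for 18. Wild-type counts were larger on the DUS2L side by a log2 ratio of 1.19, so the same cut of 10 was stricter for DUS1L. Among the 27, tRNA-Cys-GCA-1-1 was at 9.24 and 7.97 in the DUS1L clones and 7.81 and 8.29 in the DUS2L clones. On the common scale, 11 isodecoders had a level of at least 30 in both DUS2L clones and under 10 in wild type and both DUS1L clones. Among the 47 the reverse was seen for 0, but only the 2 with a low mean in the DUS2L table alone could have shown it. The tested isodecoders were not searched for the reverse, so the 2 counts cannot be compared. tRNA-Lys-CTT-10-1 was at 1.49 and 0.586 in the DUS1L clones and 685 and 1083 in the DUS2L clones. tRNA-Tyr-GTA-9-1 was at 1.31 and 0.141 against 495 and 591, and then made up 51.6% and 37.1% of the Tyr-GTA family in the DUS2L clones. tRNA-Tyr-ATA-1-1, the only tyrosine tRNA with an ATA anticodon, was at 0.0586 and 0.119 against 128 and 187. The other 8 were tRNA-Met-CAT-7-1, tRNA-Leu-CAA-5-1, tRNA-Cys-GCA-19-1, tRNA-Lys-CTT-9-1, tRNA-Cys-GCA-18-1, tRNA-Gln-CTG-7-1, tRNA-Arg-TCG-6-1 and tRNA-Cys-GCA-11-1, at 34.7 to 187 in the DUS2L clones. The abundant families Leu-AAG and Met-CAT carried no p-value in the authors' deposited tables and stood at -0.04 and 0.16.

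Gaps between clones of the same gene were mostly smaller than the differences between genes. The median absolute gap between DUS1L clones was 0.62 and between DUS2L clones 0.42, beside a median absolute difference of 1.19 between the genes and a median SE of a clone pair of 0.55. Between clones of the same gene, 12 of 224 isodecoder entries passed for DUS1L (5.36%), 11 of them lower in clone #2, and 4 passed for DUS2L (1.79%). Single clone pairs called 63 higher and 45 lower (DUS2L #1 against DUS1L #1), 65 and 36 (#1 against #2), 71 and 53 (#2 against #1) and 70 and 51 (#2 against #2) of all 224 entries.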

How the data were processed

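Transfer RNA from HEK293T cells was isolated from a gel and made into small RNA libraries, per the labels' protocols. For the authors' processing, the submitters' processing notes list DESeq2, STAR, featureCounts and fastp with the build hg38 and no versions. How reads matching several tRNA genes were counted, and how the spike-ins entered the scaling, is not given in the sources used here. The authors' deposited tables give, per the file headers, a mean normalised count (a signal, at least 0), and for clones #1 and #2 the log2 fold change against wild type and its p-value, which is not adjusted. Depth is therefore known only as those means, and no value of a single library was used.

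From each fold change and p-value an SE was recovered (fold change over the normal quantile of the p-value). With 3 libraries assumed for each group, the mean and the fold changes of both clones give the levels of wild type and clones, and the SE gives the dispersion. The knockout part of each variance entered the Wald test, since the wild type is shared and cancels. Rows were tested where the authors' mean was at least 10 in both tables and a p-value was given in both. Adjustment was by the Benjamini-Hochberg method for each clone pair, with a threshold of 0.05. Computation used scipy 1.17.1, pandas 2.3.3, numpy 2.4.6 and matplotlib 3.10.9 under Python 3.11.15. The calling was run on simulated data that held no spread between clones and no shift of the whole pool. It therefore says nothing on how calls behave where these are present. The test takes each recovered dispersion as known.

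The members, lists and named tRNAs were chosen with earlier results of these data known. Named tRNAs were the called families, up to 14 isodecoders in each direction by the smallest pair difference, called mitochondrial tRNAs, Tyr-GTA, iMet-CAT and SeC-TCA with their isodecoders, isodecoders whose clones differ most, and up to 3 abundant members of lists. Others named beside them (tRNA-Gln counts, tRNA-Lys-TTT-6-1, tRNA-Leu-TAA-1-1, mt-Thr-TGT, mt-Cys-GCA, mt-Asp-GTC, Ser-GCT, Gly-CCC, the untested tRNAs) were chosen after their values were seen. Lists are described by counts and medians without a set test. Lists by the bases of the D loop were not run: no nuclear tRNA sequence was in the tables used, and the rule for the D loop found 2 of 22 mitochondrial tRNAs. Gene positions are from RefSeq on GRCh38, where 248 of 261 nuclear entries matched, and an entry can stand for identical copies; overlapping genes are from GENCODE.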

Additional observations from a re-analysis of the deposited data

Results flagged for a closer look

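Clones of the same gene differed in 12 isodecoder entries for DUS1L and in 4 for DUS2L, each tested as the difference between the clones with adjusted p-values over 224 entries. Gaps are clone #2 minus clone #1 on the centred log2 scale.

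Among the DUS1L gaps, tRNA-Asn-GTT-24-1 had one of -2.09 ± 0.58, and all 4 of its pairs passed. tRNA-Lys-CTT-8-1 had a gap of -2.48 ± 0.61, from levels of 305 and 42.6, and its difference between the genes passed in 3 of the 4 pairs. tRNA-Lys-CTT-5-1 had a gap of -2.04 ± 0.52, and all 4 of its pairs passed.

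In the DUS2L clones, tRNA-Asn-GTT-10-1 had a gap of -2.26 ± 0.63, from levels of 26.0 and 7.19, and tRNA-Leu-TAG-1-1 a gap of -1.83 ± 0.46, from levels of 76.5 and 28.4. The E. coli Tyr-GTA spike-in differed by -1.36 ± 0.30 between the DUS2L clones, so a reference built on it would move them apart.

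tRNA-Asn-GTT-8-1 was at 4.24 and 45.4 in the DUS1L clones and at 64.7 and 2.10 in the DUS2L clones, from 220 in wild type, and its clones differed in opposite directions in the knockouts (gaps of 3.79 ± 0.99 and -5.35 ± 0.69).

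Outside the rows tested, 11 nuclear isodecoders had a level of at least 30 in both DUS2L clones while wild type and both DUS1L clones stayed under 10. The wild type here is the one shared by both tables.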

How the results depend on the processing

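Counts are higher and lower nuclear isodecoders, families and mitochondrial tRNAs, which were 44 and 23, 7 and 4, and 3 and 0. With no centring they were 16 and 55, 1 and 11, and 1 and 2. With the spike-ins as reference they were 23 and 41, 3 and 8, and 1 and 1. With the wild-type part of the spread kept they were 24 and 13 isodecoders and 1 and 2 families. A single contrast of clone means in place of 4 pairs gave 77 and 59, 16 and 11, and 5 and 1. A mean of at least 100 left 23 higher isodecoders, and an adjusted p under 0.01 left 2 higher families. Leaving out each clone in turn gave 46 to 56 and 28 to 40 isodecoders, 7 to 11 and 5 to 8 families and 3 to 4 higher mitochondrial tRNAs; with fewer pairs to pass, such counts can only stay or grow by construction apart from the adjustment. Chosen after the data were seen, the nuclear total as reference gave 19 and 51, 2 and 11, and 0 and 1, and each pair's median nuclear difference gave 2 and 10 families. The cause of these shifts was not tested. For the named tRNAs over all alternatives, 945 values kept their call or lack of one, 58 lost a call, 30 gained one and 0 reversed. The 945 include named tRNAs that were untested in the main comparison and in the alternative. Tested tRNAs that an alternative left untested were not counted as lost. Only tRNAs called in the main comparison could count as reversed. No paired analysis was possible because the tables hold no values per library. A low mean limits what was tested: 47 nuclear isodecoders were under 10 in a table, 27 of them in the DUS1L table alone.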
